A study of Macaca mulatta with 8 samples.

Results

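CD40LG encodes CD40 ligand (CD154), a membrane protein of the TNF family through which CD4-positive helper T cells stimulate CD40 on B cells and other antigen-presenting cells. It is described here as 1 gene (ENSMMUG00000013773) of the 16429 in the count table of a single-cell RNA-seq study of regulatory T cells (Tregs) transferred into rhesus macaques. The gene was found by its symbol, which 1 row carried, and it gave 3199 UMIs (counted RNA molecules) in 2763 of 25397 blood cells. FOXP3 (ENSMMUG00000008624), the transcription factor that defines Tregs, was detected in 3310 cells, and IL2RA (ENSMMUG00000015151), the CD25 chain of the IL-2 receptor, in 7484 cells.

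CD40 ligand is known as the signal that drives B cells to switch antibody class and dendritic cells to prime T cell responses. Resting conventional CD4 T cells carry little of it on their surface, and it rises quickly after the T cell receptor is engaged. FOXP3 represses many helper genes in Tregs, and human Tregs are known to express less CD40 ligand on activation than conventional CD4 cells.

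Cells were sorted on day 20 and on day 3 into 4 populations, with 1 library each. CFSE-positive cells carry a dye that is diluted at each division and are read as the transferred Tregs on the strength of the series title. CD25high CD127low cells (CD3+ CD4+) match endogenous Tregs in surface markers, CD127+CD25+ cells (CD3+ CD4+) carry both markers, and CD127+CD25- cells (CD3+ CD4+) have the conventional phenotype. All cells were cryopreserved blood mononuclear cells enriched for CD4, and the labels name neither the animals, their age or any treatment, nor how many animals a library holds. There were no replicates, so no p-value or SD is given, and each interval is an exact 95% interval (Poisson for levels, Clopper-Pearson for shares of cells) that covers counting error only. IL2RA and IL7R, the CD127 gene, encode the proteins used for sorting.

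Libraries held 2992787 to 12149559 UMIs, with medians of 2131 to 3095 UMIs per cell, and 382 of 25012 cell barcodes occurred in more than 1 library. The T cell markers CD3D and CD3G stood at 1174.5 to 2273 and 147 to 233 CPM (the library's counts scaled to the usual common total) over the 8 libraries, whereas CD4 RNA itself was at 3.47 to 7.29 CPM. Summed platelet markers reached at most 1.30 CPM, and the CD8 T cell markers CD8A and CD8B together at most 3.68 CPM. HBB, a red cell hemoglobin transcript, stood at 0.123 to 0.668 CPM in the day 20 libraries and at 147 to 1385 CPM in those of day 3. HBA2, another hemoglobin transcript, was present on both days, at 126 to 147 CPM on day 20 and 150 to 228 CPM on day 3.

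CD40LG was lowest in the CFSE-positive sort and highest in the CD127+ sorts. In CFSE-positive cells its level was 1.67 CPM (0.543 to 3.90) on day 20 and 2.47 CPM (1.67 to 3.52) on day 3. CD25high CD127low cells had 50.5 CPM (45.2 to 56.2) on day 20 and 35.4 CPM (31.9 to 39.1) on day 3. In CD127+CD25+ cells the level was 79.0 CPM (73.7 to 84.6) on day 20 and 56.3 CPM (51.5 to 61.5) on day 3. The highest library was that of the CD127+CD25- cells. They stood at 84.5 CPM (78.3 to 91.1) on day 20 and 56.9 CPM (51.6 to 62.5) on day 3. From the highest to the lowest library, the order was CD127+CD25- and CD127+CD25+ on day 20, CD127+CD25- and CD127+CD25+ on day 3, CD25high CD127low on day 20 and on day 3, and CFSE-positive on day 3 and on day 20. Of the neighbours in that order, the intervals overlapped between both day 20 CD127+ sorts, between both day 3 CD127+ sorts, between the day 3 CD127+CD25+ and the day 20 CD25high CD127low library, and between both CFSE-positive libraries.

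**Figure D1:**
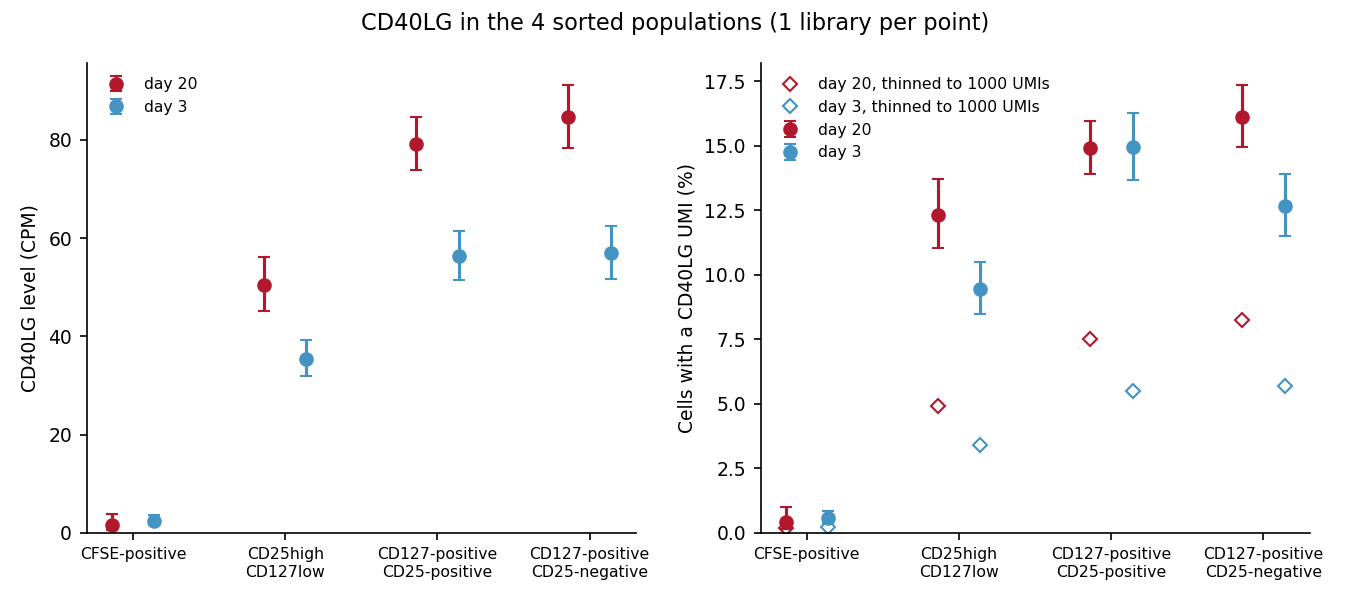
CD40LG in each library, as CPM (left) and as the percentage of cells with a CD40LG UMI (right); points are single libraries, bars are exact 95% counting intervals, and open diamonds are the expected shares after thinning each cell to 1000 UMIs. The CFSE-positive libraries sit at 1.67 and 2.47 CPM, below the intervals of the other 6 libraries.

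The share of cells with at least 1 CD40LG UMI was likewise lowest in CFSE-positive and next lowest in CD25high CD127low cells on both days. That share was 0.435% (0.141 to 1.01) on day 20 and 0.579% (0.372 to 0.861) on day 3 in CFSE-positive cells, which is 5 of 1149 and 24 of 4142 cells. In CD25high CD127low cells 12.3% (11.03 to 13.7) had the transcript on day 20 and 9.47% (8.50 to 10.5) on day 3. CD127+CD25+ cells stood at 14.9% on both days, with intervals of 13.9 to 16.0% on day 20 and 13.7 to 16.3% on day 3. CD127+CD25- cells stood at 16.1% (15.0 to 17.4) on day 20 and 12.7% (11.5 to 13.9) on day 3. Detection was sparse, since 2379 of the 2763 positive cells had 1 UMI, 338 had 2 and 46 had 3 or more. With each cell thinned to 1000 UMIs, the shares were 0.182%, 4.92%, 7.53% and 8.25% on day 20 and 0.239%, 3.42%, 5.50% and 5.68% on day 3 in CFSE-positive, CD25high CD127low, CD127+CD25+ and CD127+CD25- cells. At that equal depth the day 20 share was the higher one in each of the 3 populations outside the CFSE-positive sort, including CD127+CD25+ cells, whose unthinned shares were alike at median depths of 2131 UMIs on day 20 and 2942 UMIs on day 3.

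All CFSE-positive cells together had 1.98% (0.640 to 4.63) of the CD127+CD25- level on day 20 and 4.34% (2.89 to 6.29) on day 3. On the log2(CPM + 10) scale, which understates changes of low genes, CD40LG differed by -3.02 (-3.17 to -2.76) on day 20 and by -2.42 (-2.54 to -2.28) on day 3. CD40LG was thereby 1 of the 31 genes, 1.62% of 1913, that were at least 2-fold lower in CFSE-positive than in CD127+CD25- cells on both days, while 34 genes (1.78%) were at least 2-fold higher. The genes entering that count had at least 50 CPM in 1 of the compared libraries on each day, and their median log2 ratio was 0.11 on day 20 and 0.48 on day 3. TMM scaling factors moved the CD40LG ratio of day 3 to -2.56. Against CD25high CD127low cells the level in CFSE-positive cells was 3.31% (1.07 to 7.80) on day 20 and 6.97% (4.64 to 10.1) on day 3, or -2.37 and -1.86 on the log2 scale. CD40LG did not enter the count of that comparison, in which 1.24% of 1851 genes were lower and 0.378% higher on both days, because neither day 3 library reached 50 CPM.

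CD25high CD127low cells stood between these groups, with 59.7% (52.2 to 68.1) of the CD127+CD25- level on day 20 and 62.3% (54.1 to 71.6) on day 3. These are log2 ratios of -0.64 and -0.56, under the 2-fold size that 0.684% of 1755 genes passed downward and 0.741% upward on both days. With endoTreg cells of the one sort set against Tconv cells of the other, by the authors' classes and chosen after seeing the data, the ratios were past that size, at -1.72 and -1.38. CD127+CD25+ cells had 93.5% (84.4 to 103.6) of that level on day 20 and 99.1% (86.9 to 112.9) on day 3. Their log2 ratios were -0.09 (-0.22 to 0.05) and -0.01 (-0.17 to 0.15), so no difference between the CD127+ sorts was seen beyond counting error in the whole libraries, where 0.604% of 1657 genes were at least 2-fold lower and 0.121% higher in the CD25+ sort on both days.

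The authors' 3 cell classes placed nearly all of the transcript in conventional cells. The class named Tconv held 2993 of the 3199 CD40LG UMIs, endoTreg 172 and transTreg 34. Over all libraries the level was 2.27 CPM (1.57 to 3.17) in transTreg, 18.9 CPM (16.2 to 21.9) in endoTreg and 68.7 CPM (66.3 to 71.2) in Tconv cells. The 49 transTreg cells of the CD25high CD127low sort on day 20 stood at 23.0 CPM (4.75 to 67.3), on 3 UMIs. How these classes were made is not stated in the sources used here. CD40LG, FOXP3 and IL2RA are all among the 3052 genes that the deposited gene table marks as used for ordering cells. The classes and clusters may thus rest in part on these genes, so differences between them are given as descriptions only.

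In the CD25high CD127low sort, too, Tconv-class cells held most of the transcript. There, endoTreg cells had CD40LG in 48 of 938 cells, or 5.12% (3.80 to 6.73), on day 20 and in 62 of 1301, or 4.77% (3.67 to 6.07), on day 3. Tconv-class cells of the same libraries had it in 238 of 1356, or 17.6% (15.6 to 19.7), on day 20 and in 255 of 2037, or 12.5% (11.1 to 14.0), on day 3. As levels, endoTreg cells stood at 26.0% (18.9 to 35.2) of the Tconv cells of their library on day 20 and at 32.3% (24.5 to 41.9) on day 3. Tconv-class cells were 57.9% of this sort on day 20 and 60.9% on day 3, and held 83.7% and 81.7% of its CD40LG UMIs. With Tconv-class cells alone, the CD25high CD127low sort differed from CD127+CD25- by log2 -0.20 (-0.38 to -0.02) on day 20 and -0.18 (-0.36 to -0.0011) on day 3, at 73.5 against 85.7 CPM and 49.1 against 57.1 CPM.

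**Figure D2:**
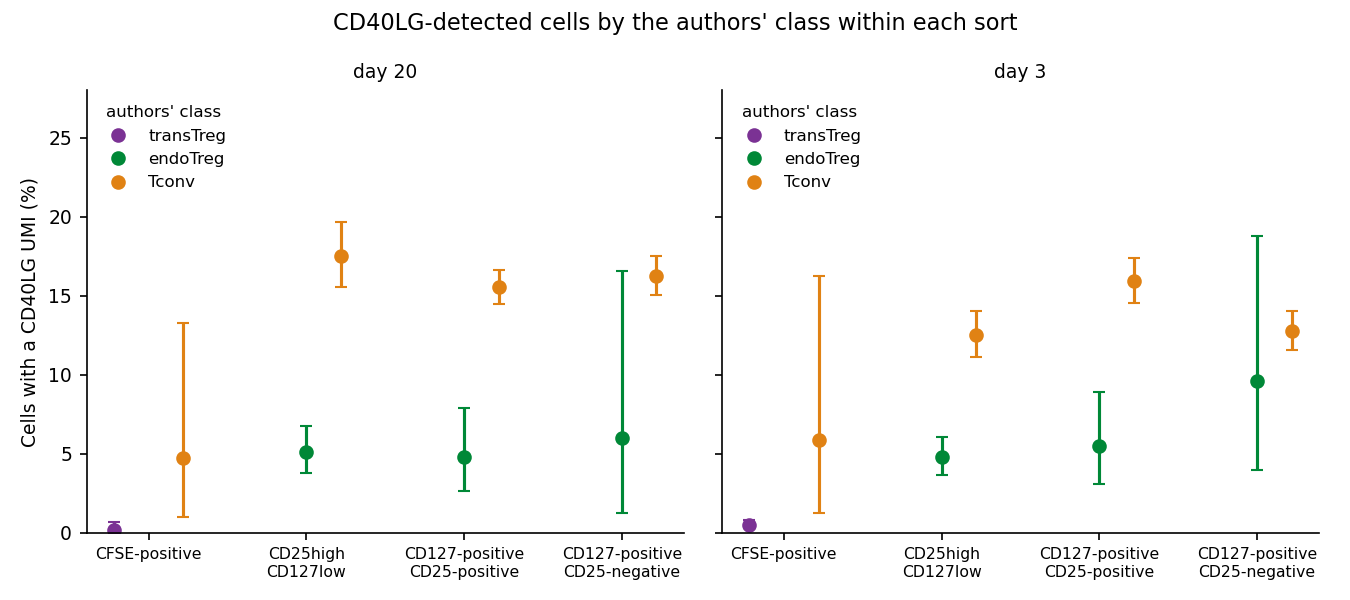
Percentage of cells with a CD40LG UMI by the authors' class within each sort (day 20 left, day 3 right); points are 1 class in 1 library, shown for at least 50 cells, with exact 95% binomial intervals. Within the CD25high CD127low libraries endoTreg cells sit near 5%, at 5.12% and 4.77%, and Tconv cells at 17.6% and 12.5%.

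Transferred cells stood below endogenous Tregs of matching class. The transTreg cells of the CFSE-positive sort had CD40LG in 2 of 1064 cells, or 0.188% (0.0228 to 0.677), on day 20 and in 21 of 4079, or 0.515% (0.319 to 0.786), on day 3. Their level was 3.75% (0.442 to 14.3) of that of endoTreg cells in the CD25high CD127low sort on day 20 and 13.2% (7.99 to 21.1) on day 3, the day 20 value resting on 2 UMIs. Median depths were 2599 UMIs for transTreg and 2551 for endoTreg cells on day 20 and 2796 and 3216 UMIs on day 3. Tconv-class cells were 5.48% of the CFSE-positive sort on day 20 and 1.23% on day 3. They held 3 of its 5 CD40LG UMIs on day 20 and 5 of its 30 on day 3. Their levels were 20.6 CPM (4.24 to 60.1) and 37.2 CPM (12.1 to 86.7).

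Among the authors' finer names for Treg libraries, endo_Effector_Tregs of the CD25high CD127low sort had 14.2 CPM (8.57 to 22.2) on day 20 and 13.2 CPM (8.29 to 20.03) on day 3. The endo_Naive_Tregs of that sort had 25.3 CPM (17.0 to 36.4) on day 20 and 18.2 CPM (13.4 to 24.1) on day 3, so the naive-named cells were the higher on both days with overlapping intervals. In CFSE-positive cells of day 3, transferred_Effector_Tregs had CD40LG in 4 of 1124 cells and transferred_inTransition in 9 of 2687. On day 20, transferred_Naive_Tregs had it in 2 of 985 cells. The small unnamed class Unk1 had a higher share than these transferred names, with CD40LG in 3 of 26 cells (11.5%, 2.45 to 30.2) on day 20 and in 8 of 115 cells (6.96%, 3.05 to 13.2) on day 3. The few endo_Naive_Tregs of the CFSE-positive sort had it in 0 of 40 cells on day 20 and in 2 of 21 (9.52%, 1.17 to 30.4) on day 3. Unk1 thus held 3 of the 5 positive CFSE-positive cells of day 20 and 8 of the 24 of day 3. These Unk1 cells also had S100A4, a calcium-binding protein of memory and effector T cells, at 4334 CPM (day 20) and 2290 CPM (day 3), against 169 and 323 CPM in the whole CFSE-positive libraries. The cytotoxic gene GZMB was at 1513 and 658 CPM in Unk1, against 32.4 and 26.2 CPM in the whole sort, and IL7R was at 391 and 240 CPM, against 32.1 and 13.4 CPM. FOXP3 in Unk1 was at 34.0 CPM (4.12 to 123) on day 20 and 85.5 CPM (55.9 to 125) on day 3, against 127 and 259 CPM in the whole sort. IL2RA in Unk1 was at 136 CPM (58.7 to 268) on day 20 and 497 CPM (421 to 583) on day 3, against 305 and 634 CPM. Of the CD40LG-positive Unk1 cells, 1 was transTreg and 2 were Tconv by class on day 20. All 8 of day 3 were transTreg, and 5 of them had an IL2RA UMI. Whether Unk1 holds transferred or other cells was not tested.

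A UMI in a cell need not come from that cell in droplet data, and B cells are a type that should lack CD40LG at this depth. Of the cells with at least 3 UMIs of B cell markers outside the CFSE-positive sort, 3 of 50 had CD40LG, or 6.0% (1.25 to 16.5), at a median of 3410 UMIs. These cells are not shown to be B cells, since CD79A and CD79B were also counted in the T cell clusters. None of the 15 cells with B cell but no T cell marker UMIs had CD40LG, which allows a share of up to 20% when 3 counts of the total are taken as the limit and up to 21.8% by the exact interval. With so few cells, the share that UMIs of other cells give was not measured closely. Within each library of the CD25high CD127low and CD127+CD25+ sorts, the intervals of the endoTreg and Tconv shares did not overlap. In the CD127+CD25- sort, with 50 and 73 endoTreg cells, they overlapped on both days. The shares there were 6.0% (1.25 to 16.5) in endoTreg and 16.3% (15.1 to 17.5) in Tconv cells on day 20. On day 3 they were 9.59% (3.94 to 18.8) and 12.8% (11.6 to 14.0). How far stray UMIs enter these shares was not tested.

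Across the authors' 10 clusters, CD40LG was detected in every cluster and, with sorts pooled, was lower in the Treg than in the conventional ones. Clusters 1 and 2, of the transTreg class, had 2.15 and 2.79 CPM over both days and all sorts. Of the 8 UMIs in cluster 2, 2 came from its 1018 CFSE-positive cells of day 20, at 0.749 CPM (0.0907 to 2.71). Another 3 came from its 46 CD25high CD127low cells of day 20. Clusters 3 and 4, of the endoTreg class, had 18.7 CPM (15.1 to 23.0) and 19.1 CPM (15.1 to 23.7). The conventional clusters 5 to 10 ranged over 42.7 to 91.2 CPM. Lowest among these was cluster 6, led by genes such as PLAC8, ID2 and BACH2, at 42.7 CPM (38.2 to 47.6). In the CD25high CD127low sort alone, cluster 6 had 21.1 CPM (7.73 to 45.8) on day 20 and 15.8 CPM (5.81 to 34.5) on day 3. Clusters 3 and 4 of that sort were at like levels, with 14.9 and 25.0 CPM on day 20 and 13.9 and 17.5 CPM on day 3. Cluster 7, which TCF7 and LEF1 of naive and resting T cells mark and which is the largest with 8576 cells, stood at 75.8 CPM (72.2 to 79.5), with CD40LG itself and HBB among its leading genes.

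Cluster 5, marked by cytotoxic genes, had the highest CD40LG level of the 10 clusters when sorts were pooled. Its leading genes were GZMB, a granule protease, and NKG7, a granule membrane protein, and its CD40LG level was 91.2 CPM (78.6 to 105.1) over both days. It had the lowest median depth of the 10 clusters, 1574 UMIs, and its share of positive cells was 13.8% as measured and 8.75% after thinning to 1000 UMIs. The thinned share was 7.48% in cluster 7, 7.12% in the CCR6- and S100A4-marked memory cluster 9, 6.22% in the interferon-response cluster 10 marked by ISG15 and MX1, 6.15% in cluster 8 and 4.23% in cluster 6. With sorts pooled, cluster 5 thus came first among the conventional clusters by CPM and by thinned share, but lay below clusters 7, 8 and 9 by unthinned share. Its CPM interval overlapped those of clusters 7 and 9. Of its 1218 cells, 612 (day 20) and 549 (day 3) were of the CD127+CD25- sort. Within that sort, cluster 7 had 106 CPM against 109 CPM in cluster 5 on day 20, and 79.9 against 76.2 CPM on day 3. Thinned shares there were 10.3% in cluster 7 and 10.1% in cluster 5 on day 20, and 7.93% and 7.39% on day 3.

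The CD127+ sorts had similar totals and unlike mixtures of clusters. In cluster 7, CD127+CD25+ cells had 87.4 CPM and CD127+CD25- cells 106 CPM on day 20, while on day 3 they had 62.1 and 79.9 CPM. The log2 ratios, -0.26 (-0.44 to -0.07) on day 20 and -0.32 (-0.55 to -0.09) on day 3, lay below 0 on both days. CD25high CD127low cells of cluster 7 were also lower than CD127+CD25- cells of that cluster, at 81.0 CPM (day 20) and 47.7 CPM (day 3), which are log2 ratios of -0.36 (-0.62 to -0.09) and -0.64 (-0.89 to -0.38). Cluster 7 made up 56.6% of CD127+CD25+ cells and 34.7% of CD127+CD25- cells on day 20, and 59.2% and 31.4% on day 3. The low cluster 6 made up 3.73% of CD127+CD25+ cells and 35.1% of CD127+CD25- cells on day 20, and 3.49% and 38.5% on day 3. Cluster 5 made up 0.463% of CD127+CD25+ cells and 16.6% of CD127+CD25- cells on day 20, and 0.169% and 18.1% on day 3, and had 109 CPM (day 20) and 76.2 CPM (day 3) in the CD127+CD25- sort. In the memory cluster 9 the CD127+CD25+ over CD127+CD25- ratio was -0.06 (-0.49 to 0.37) on day 20 and 0.10 (-0.46 to 0.67) on day 3, within counting error.

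**Figure D3:**
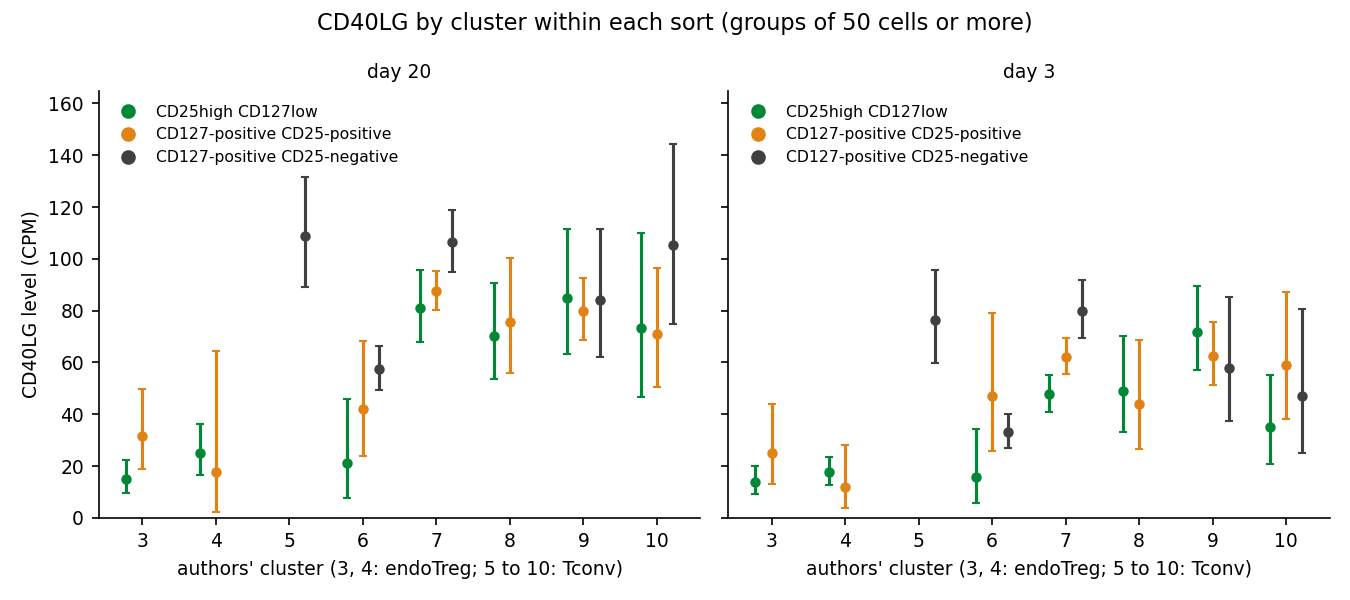
CD40LG level in CPM by the authors' cluster within each sort (day 20 left, day 3 right), for clusters 3 to 10 and groups of at least 50 cells; points are 1 cluster in 1 library with exact 95% Poisson intervals. In cluster 7 the CD127+CD25- point is the highest on both days, at 106 and 79.9 CPM.

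CD40LG was higher on day 20 than on day 3 in the 3 populations outside the CFSE-positive sort. The level on day 20 was 143% (123 to 166) of that on day 3 in CD25high CD127low cells, 140.3% (125 to 157) in CD127+CD25+ cells and 149% (132 to 168) in CD127+CD25- cells. As log2 ratios these were 0.41, 0.42 and 0.50 (0.35 to 0.65), all under 2-fold, a size that 2.54%, 0% and 0.0572% of the tested genes passed upward and 0.324%, 0.112% and 0.114% downward. In CFSE-positive cells the day 20 level was 67.7% (20.5 to 176) of that on day 3, so that its direction is unresolved at 5 and 30 UMIs; in that sort 4.09% of 2227 genes were at least 2-fold higher and 3.1% lower on day 20.

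The day difference was spread over the conventional clusters. Of 15 pairs of 1 cluster (5 to 10) in 1 sort with at least 50 cells on both days, 14 had the higher level on day 20, and for 7 the interval lay above 0 and for none below it. The exception was cluster 6 of CD127+CD25+ cells, with 42.0 CPM (day 20) and 47.2 CPM (day 3). The largest ratios were those of cluster 10 in the CD25high CD127low and CD127+CD25- sorts, with 73.4 CPM (day 20) and 35.0 CPM (day 3) in CD25high CD127low cells and 105 against 47.2 CPM in CD127+CD25- cells. In CD127+CD25+ cells of cluster 10 the levels were 71.0 CPM (day 20) and 59.1 CPM (day 3), a log2 ratio of 0.23 (-0.43 to 0.89). In the endoTreg class of the CD25high CD127low sort the level was 19.1 CPM (day 20) and 15.9 CPM (day 3), a log2 ratio of 0.17 (-0.17 to 0.52) that counting error covers. HBB was near 0 on day 20 and present on day 3 in the same libraries, while HBA2 was present on both days. Day and library cannot be told apart with 1 library per population and day.

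CD40LG and FOXP3 were seldom found in the same cell. Both were detected in 38 cells, and in 18 of these IL2RA was detected as well. In Tconv-class cells of the CD25high CD127low and CD127+CD25+ sorts, CD40LG was present in 9 of 225 FOXP3-detected cells, or 4.0% (1.84 to 7.46), and in 1602 of 10293 cells without a FOXP3 UMI, or 15.6%. Undetected cells weighted to the same depth gave 15.8%, or 35.5 expected cells in place of the 9. In endoTreg cells of the CD25high CD127low sort the same split gave 21 of 695, or 3.02% (1.88 to 4.58), and 89 of 1544, or 5.76%, with 5.90% at matched depth. In transTreg cells of all libraries it gave 6 of 2204, or 0.272% (0.100 to 0.592), and 24 of 3020, or 0.795%.

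With classes pooled, the share was lower in FOXP3-detected cells in each of the 6 libraries of the CFSE-positive, CD25high CD127low and CD127+CD25+ sorts. In CFSE-positive cells CD40LG was in 0 of 292 FOXP3-detected and 5 of 857 other cells on day 20, with overlapping intervals, and in 4 of 1928 (0.207%, 0.0566 to 0.530) and 20 of 2214 (0.903%, 0.553 to 1.39) on day 3. It was in 3.82% of FOXP3-detected and 13.7% of other cells of the CD25high CD127low sort on day 20, and in 3.15% and 10.7% on day 3. In CD127+CD25+ cells the shares were 2.24% and 15.3% on day 20 and 2.08% and 15.4% on day 3. These shares mix classes, since 250 of the 314 FOXP3-detected cells of the CD25high CD127low sort on day 20 were endoTreg. Within endoTreg cells of that sort they were 2.80% and 5.96% on day 20 and 3.15% and 5.61% on day 3. Its Tconv cells had 7.14% and 18.0% on day 20 and 3.19% and 13.0% on day 3. Within these classes, intervals were apart only for Tconv cells of CD25high CD127low on day 3 and of CD127+CD25+ on day 20. By cluster, the share was lower in FOXP3-detected cells of clusters 1 to 8 and 10, although clusters 5 and 8 had only 2 and 8 such cells. Cluster 9 went the other way, with CD40LG in 4 of 17 FOXP3-detected cells, or 23.5% (6.81 to 49.9), against 16.1% of the rest. FOXP3 was itself a gene marked for ordering, which bears on every comparison made within a class or cluster.

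In Tconv-class cells the share of CD40LG-positive cells differed less with IL2RA than with FOXP3. CD40LG and IL2RA were detected together in 352 cells. In those of the CD25high CD127low and CD127+CD25+ sorts, CD40LG was in 242 of 1831 IL2RA-detected cells, or 13.2% (11.7 to 14.9), and in 1369 of 8687 others, or 15.8%, with 16.0% at matched depth. With at least 2 IL2RA UMIs the share was 40 of 413, or 9.69% (7.01 to 13.0). In each library the intervals of both kinds of Tconv cell overlapped. The gap was wider in the CD25high CD127low sort, at 13.3% of IL2RA-detected and 18.9% of other cells on day 20 and 10.1% and 13.4% on day 3. It was narrower in the CD127+CD25+ sort, at 14.3% and 15.7% on day 20 and 15.7% and 16.0% on day 3. Among the few IL2RA-detected Tconv cells of the CD127+CD25- sort, CD40LG was in 10 of 40 on day 20 and 4 of 37 on day 3, with intervals of 12.7 to 41.2% and 3.02 to 25.4% that hold the 16.2% and 12.8% of the other cells. In endoTreg cells of the CD25high CD127low sort CD40LG was in 63 of 1448 IL2RA-detected cells, or 4.35% (3.36 to 5.53), and in 47 of 791 others, or 5.94%, with 6.54% at matched depth. On day 3 these shares were 4.08% and 6.65%, a gap of about the size of that with FOXP3 (3.15% and 5.61%).

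Splitting cells by both genes ordered the shares pooled over libraries the same way in Tconv and endoTreg cells. Tconv cells of all libraries had CD40LG in 2 of 113 cells with FOXP3 and IL2RA (1.77%, 0.215 to 6.25), 7 of 135 with FOXP3 only (5.19%, 2.11 to 10.4), 255 of 1839 with IL2RA only (13.9%, 12.3 to 15.5) and 2320 of 15125 with neither (15.3%, 14.8 to 15.9). In endoTreg cells these shares were 1.88% (0.976 to 3.26), 5.0% (2.52 to 8.77), 5.54% (4.27 to 7.04) and 6.51% (5.05 to 8.24). In both classes the doubly positive cells were the lowest in the pooled counts, but among Tconv cells of the CD127+CD25+ sort CD40LG was in 1 of 23 with both genes (4.35%) and 1 of 52 with FOXP3 only (1.92%). Undetected FOXP3 or IL2RA does not mean an absent transcript at these depths, so the cells without a UMI include some that express the gene.

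**Figure D4:**
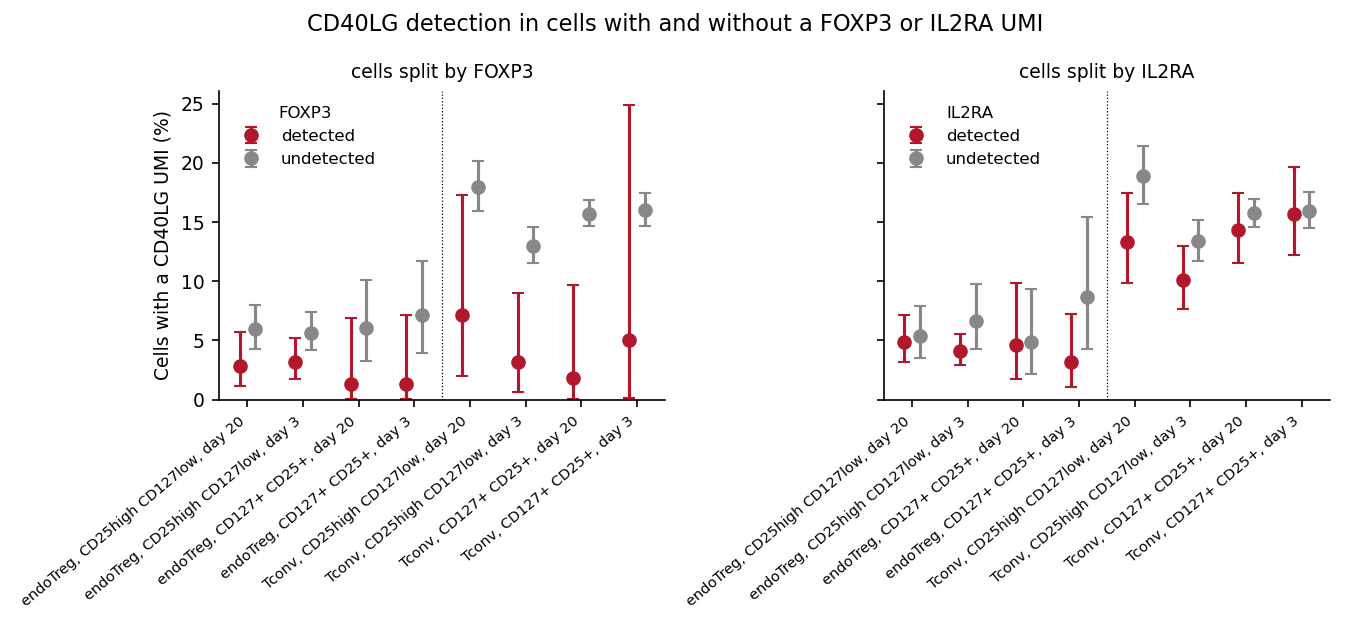
Percentage of cells with a CD40LG UMI among cells with (red) and without (grey) a UMI of FOXP3 (left) or IL2RA (right), by class, sort and day; bars are exact 95% binomial intervals. Red points lie below grey ones in all 8 FOXP3 pairs. Their intervals are apart only for Tconv cells of CD25high CD127low on day 3 and of CD127+CD25+ on day 20. The IL2RA pairs of Tconv cells lie closer together than their FOXP3 pairs, such as 15.7% and 16.0% in CD127+CD25+ on day 3.

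Among the 4 ligands of the TNF family that passed the 50 CPM level, CD40LG was the one called lower in CFSE-positive cells. Of the 17 listed ligands, 14 were in the table and 4 passed the 50 CPM level in the comparison of CFSE-positive with CD127+CD25- cells, of which CD40LG was lower and none higher by 2-fold on both days, next to 1.62% of all genes lower and 1.78% higher. Their median log2 ratio was -0.91 on day 20 and 0.12 on day 3, beside 0.11 and 0.48 over all tested genes. LTB, which encodes lymphotoxin beta and was the most abundant, had 2365 CPM (day 20) and 3453 CPM (day 3) in CFSE-positive cells, against 1504 and 1394 CPM in CD127+CD25- cells. TNFSF8, the CD30 ligand, had 22.4 and 38.2 CPM in CFSE-positive cells, against 76.4 and 61.2 CPM in CD127+CD25- cells. CD70, the ligand of CD27, had 10.4 and 55.1 CPM in CFSE-positive cells, against 1.97 and 1.86 CPM in CD127+CD25- cells. TNFSF13B, which reached 50 CPM in no library and so was not counted, was also lower in CFSE-positive cells. It had 6.68 and 1.89 CPM there, against 29.2 and 22.1 CPM in CD127+CD25- cells. The low ligands TNF and FASLG stayed at or under 4.36 CPM in each of the 8 libraries.

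The receptor side and the helper programme were at low levels in these sorted T cells. CD40, the receptor, gave 18 UMIs in all, and none of the 13 members of its signalling list reached 50 CPM in both days' comparison. TRAF1, a signalling adaptor, was at 26.8 to 47.2 CPM over the 8 libraries. Of the integrin chains through which CD40 ligand can also bind cells, 5 of 6 were in the table, 2 were measured, and ITGB1 was called lower, at 26.4 CPM (day 20) and 26.8 CPM (day 3) in CFSE-positive cells against 203 and 185 CPM in CD127+CD25- cells. ITGB1 is also a memory T cell gene. Of 12 helper cytokines 7 were in the table, with sums of 1.90 to 4.79 CPM per library, and IL2 gave 6 UMIs and IL21 5. The factors known to switch on CD40LG after T cell receptor signals (NFAT, EGR and AP-1 members, 8 of 11 in the table) each stayed at or under 6.76 CPM.

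Of the genes of follicular helper cells, the helpers of B cells in germinal centres, none of the 9 in the table reached the level of the count in the comparison of CFSE-positive with CD127+CD25- cells. CXCR5, the receptor that guides T cells to B cell follicles, had 0.334 CPM (day 20) and 0.247 CPM (day 3) in CFSE-positive cells and 11.2 and 12.0 CPM in CD25high CD127low cells. CD127+CD25+ cells had 19.1 and 17.2 CPM, and CD127+CD25- cells 9.34 and 6.63 CPM. CXCR5 thus shared the CFSE-positive minimum with CD40LG but was highest in the CD127+CD25+ sort. ICOS, a costimulatory receptor of helper cells, had 28.4 and 31.4 CPM in CFSE-positive cells, 57.6 and 46.1 CPM in CD25high CD127low cells, 56.1 and 48.2 CPM in CD127+CD25+ cells and 43.6 and 42.4 CPM in CD127+CD25- cells.

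In the same comparison, in which 1.78% of 1913 genes were higher and 1.62% lower, the other lists separated transferred from conventional cells as follows. Of the measured Treg core genes 5 of 5 were higher in CFSE-positive cells, among them FOXP3 at 127 and 259 CPM against 0.246 and 0.530 CPM in CD127+CD25- cells. Of the naive T cell list 3 of 4 were lower (TCF7, LEF1 and IL7R). The memory and activation list had 5 of 5 lower and the cytotoxic list 5 of 5 lower, with GZMB at 32.4 and 26.2 CPM against 742 and 682 CPM. Of the other cell type markers, the NK list had TYROBP lower, CST3 of the monocyte list was at 68.8 and 134 CPM in CFSE-positive cells against 39.2 and 7.16 CPM in CD127+CD25- cells, and no B cell, platelet, CD8 T cell or dendritic cell marker reached the level of the count on both days. The B cell marker CD79A had 20.4 CPM (day 20) and 55.4 CPM (day 3) in CFSE-positive cells, against 16.1 and 13.1 CPM in CD127+CD25- cells, and CD79B had 19.7 and 50.1 CPM against 5.16 and 3.58 CPM. Their part in the CD40LG difference was not tested.

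Over the 8 libraries the genes most like CD40LG in pattern included IL7R and TCF7. Likeness was taken as Pearson's r of log2(CPM + 10) among 1987 genes, and it describes points that share 2 low CFSE-positive libraries. The highest were PIP4K2A (0.99), a phosphoinositide kinase, CYSLTR1 (0.98), a leukotriene receptor, BEX4 (0.98), IL7R (0.98), the CD127 chain used for sorting, and TCF7 (0.98), a transcription factor of naive and memory T cells. They were followed by TESC (0.97), TNFAIP8 (0.97), ANXA1 (0.97), DHRS7 (0.97) and PABPC4 (0.96). The median over all 1987 genes was -0.63, and 33 genes exceeded 0.9. Without both CFSE-positive libraries r was 0.59 to 0.89 for these 10 genes over 6 libraries.

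IL7R had the widest range of these genes. It had 32.1 CPM (day 20) and 13.4 CPM (day 3) in CFSE-positive cells, 460 and 404 CPM in CD25high CD127low cells, 1008 and 823 CPM in CD127+CD25+ cells and 890 and 781 CPM in CD127+CD25- cells. Its CFSE-positive libraries were the lowest, as for CD40LG, but its highest sort was CD127+CD25+. PIP4K2A had a narrower range, with 35.4 and 37.7 CPM in CFSE-positive cells, 90.1 and 79.1 CPM in CD127+CD25+ cells, its highest sort, and 82.5 and 69.6 CPM in CD127+CD25- cells. The most opposite genes were PRKCQ (-0.98), a kinase of T cell receptor signalling, SFR1 (-0.97), AIG1 (-0.97), STRIP2 (-0.97) and GCOM1 (-0.97). STRIP2 had 54.5 and 35.1 CPM in CFSE-positive cells, against 0.860 and 0.265 CPM in CD127+CD25- cells.

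**Figure D5:**
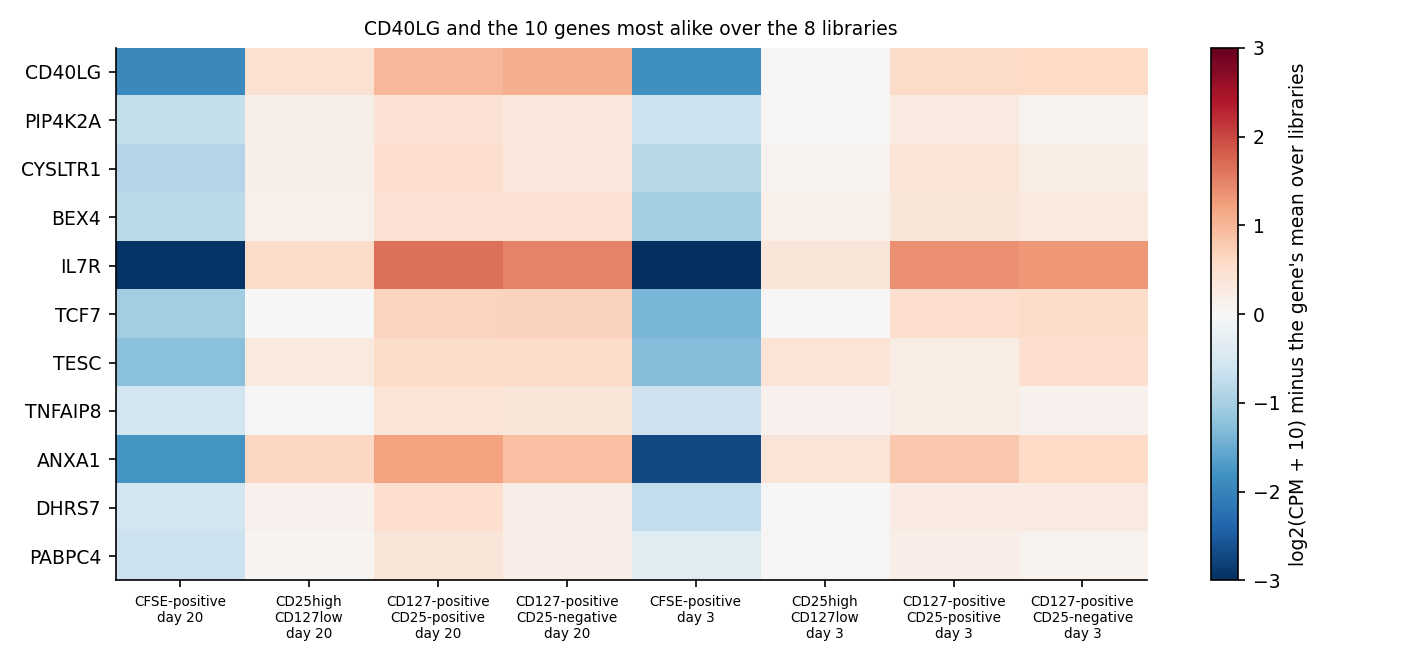
CD40LG and the 10 genes with the most similar pattern over the 8 libraries, as log2(CPM + 10) minus each gene's mean (blue below, red above; columns are libraries, day 20 first). Both CFSE-positive columns are the lowest for all 11 genes, and the ranges differ, from 0.99 for PABPC4 to 5.44 for IL7R.

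Conventional cells with and without a CD40LG UMI showed no gene with a 2-fold difference in every library. In Tconv-class cells of the 6 libraries with at least 100 positive cells (238 to 692 positive cells each), none of 1483 tested genes differed by 2-fold in all 6, either upward (0%) or downward (0%). At any size, 86 genes (5.80%) were higher and 39 (2.63%) lower in the positive cells of all 6 libraries. The named ones, with the largest smallest ratio, were BOLA3, EVI2B, NTAN1, NFKBIA, SYNE2, CAPG, IL7R, CD99, NDUFS8 and VASP, each higher by a log2 ratio of at least 0.07. NFKBIA, an inhibitor and target of NF-kappa B, had log2 ratios of 0.10 to 0.35 over the 6 libraries. IL7R in positive cells stood at 741, 1158 and 941 CPM in CD25high CD127low, CD127+CD25+ and CD127+CD25- cells on day 20, against 615, 1038 and 891 CPM in cells without a CD40LG UMI.

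The named genes lower in CD40LG-positive Tconv cells were PLAC8, GstT1, LEPROTL1, MYC, ID2, PSMD2, TKT, LSM14A, RACK1 and B2M. Each was lower by a log2 ratio of at least 0.01. Without doublet-like cells, with CST3 left out of the markers, TKT and B2M were not lower in every library, reaching 0.01 and 0.04. PLAC8 ranged over log2 ratios of -0.68 to -0.13, with 82.4 CPM in positive and 138 CPM in other cells of the CD25high CD127low sort on day 20. PLAC8 and ID2 also lead cluster 6, the conventional cluster lowest in CD40LG. Within cluster 7 alone the ratios of PLAC8 ranged over -0.44 to 0.28 and those of ID2 over -0.43 to 0.20, so their direction did not hold there in every library. Of the named lower genes, only LEPROTL1 was lower within cluster 7 in every library, by -0.28 to -0.04. Of the named higher genes, BOLA3, EVI2B, CD99 and VASP were not higher there in every library. IL7R stayed higher within cluster 7 in all 6 libraries, by 0.05 to 0.27. On day 20 the positive and other cells had median depths of 2748 and 2750 UMIs in CD25high CD127low cells and 2188 and 2132 UMIs in CD127+CD25+ cells. In CD127+CD25- cells they were 2203 and 2181 UMIs. On day 3 the positive cells were somewhat deeper in each of these sorts. Medians there were 3141 and 3016.5 UMIs in CD25high CD127low, 3043 and 2915 in CD127+CD25+, and 2508 and 2435.5 in CD127+CD25- cells.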

How the data were processed

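The deposited values are whole UMI counts per gene and cell, with each cell's total, library, cluster number, class, finer name and map coordinates (a score, not used) as deposited by the authors. The gene table's counts of cells per gene were deposited by the authors too. Per the labels, libraries were made with 10x 3' v2 chemistry, with Cell Ranger 2.1.1 as the tool per the submitters' processing notes. The sources used here give no build, annotation, cell filter or clustering method. Authors' totals equalled column sums for 25397 of 25397 cells, and 0 columns of values went unused.

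Counts were summed per library, class or cluster and divided by the summed total (CPM). Log2 ratios used a pseudocount of 10 CPM. Calls needed a 2-fold ratio and 50 CPM or more in 1 of the libraries compared, on both days for populations. No cells were removed and no doublet caller was run; 1194 doublet-like cells (over 2 times the library's median UMIs, or 3 or more marker UMIs of B cells, monocytes, platelets or red cells) were left out in an alternative. Thinned shares are expected values for 1000 UMIs per cell, leaving out 29 cells with fewer. Depth matching weighted cells without a FOXP3 or IL2RA UMI by 3 bins of depth. The named genes are the 10 most alike and 5 most opposite over libraries, the 10 per direction with the largest smallest one-sign ratio between CD40LG-positive and other Tconv cells, and list members. The gene, the 18 lists (153 entries, 132 in the table), these rules and the alternatives were chosen with earlier results of these data known. Factors came from edgeR 4.0.16 (TMM) and DESeq2 1.42.0 (median of ratios), used for scaling only; other steps used Python 3.11.15 with numpy 2.4.6, scipy 1.17.1 and pandas 2.3.3. The calling rule, the likeness rank and the intervals were tested on simulated data. A gene of the lists is not reported here.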

Additional observations from a re-analysis of the deposited data

Results flagged for a closer look

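The day 20 over day 3 log2 ratio of CD40LG was -0.10 (-0.27 to 0.17) in CFSE-positive cells, opposite in sign to the 0.41 of CD25high CD127low, 0.42 of CD127+CD25+ and 0.50 of CD127+CD25- cells. With 1 library per population and day the difference between these ratios was not tested. The CFSE-positive value rests on 5 UMIs on day 20 and 30 UMIs on day 3, and its interval includes 0.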

How the results depend on the processing

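Of 168 recomputed values, 132 moved by less than their counting interval, 36 moved further and 0 changed sign against a value beyond counting error. The size of the lowest ratios depends on the pseudocount, by construction. With 1 CPM the CFSE-positive over CD127+CD25- ratio was -5.0 on day 20 and -4.06 on day 3, that over CD25high CD127low -4.27 and -3.39, the CFSE-positive day ratio -0.38, and endoTreg over Tconv -1.89 and -1.57. With 30 CPM these were -1.85 and -1.42, -1.35 and -1.01, and, for endoTreg over Tconv, -1.07 and -0.79. TMM gave -2.56 and median-of-ratios factors -2.55 for CFSE-positive over CD127+CD25- on day 3. Restricting each sort to the authors' matching class (added after seeing the data) put CD25high CD127low over CD127+CD25- at -1.72 and -1.38, CFSE-positive over CD25high CD127low at -1.44 and -1.10, and the CD25high CD127low day ratio at 0.17. The IL2RA difference in Tconv cells was -6.07 percentage points with at least 2 IL2RA UMIs. The other 15 moved values are shares, whose level falls by construction with thinning or with at least 2 CD40LG UMIs. Leaving out doublet-like cells, with or without CST3 among the markers, moved none of its values beyond their intervals. No paired analysis was possible because each population has 1 library per day and no replicate numbers. CFSE-positive levels rest on 5 and 30 UMIs, which limits any split of those cells, and cells of 1 library are not replicates.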
